A study of Mus musculus with 2 samples.

Results

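Non-cycling stroma of the newborn mouse ovary was examined in 2 single-cell libraries: 3086 barcodes, out of 9186 with at least 5000 UMIs and 10096 in all. A UMI (unique molecular identifier) marks 1 captured RNA molecule, and a barcode marks 1 droplet, which usually holds 1 cell. Members were chosen from their own counts, scaled to 10000 UMIs per barcode. The sum of the collagen and decorin genes Col1a1, Col1a2, Col3a1 and Dcn had to reach 40. A further 6 sums, given with their upper limits, removed other cells: Mki67 and Top2a below 2 (dividing cells), Ntrk3, Ndnf and Dpt below 3 (another stroma subtype), Cd74, H2-Aa, H2-Ab1 and H2-Eb1 below 10 (MHC class II), Rgs5 below 10 (pericytes), Myh11, Actg2 and Cnn1 below 5 (smooth muscle) and Cdh5, Cldn5, Egfl7 and Flt1 below 4 (endothelium). The levels of these genes are therefore not results.

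The ovaries came from C57BL pups at postnatal day 3 whose mothers were dosed from E16.5 (late gestation) onward. In the DEHP_MLT group the mother was gavaged each morning with DEHP, a phthalate plasticizer, and received melatonin (MLT) later on the same day. In the MLT group DMSO of equal volume replaced DEHP and melatonin was given alike, so both groups carry melatonin and neither is an untreated control. The dams were treated, not the pups, and how many pups each library pools is not stated. Each group is 1 library, so no difference between groups has a replicate check and no p-value is given; intervals are 95% and cover counting error only.

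The labels conflict with the deposited tables. The table of the sample titled MLT has DEHP_MLT in its name, and the reverse holds for the other sample. The titles, with which the group field goes, were followed. If the table names are right instead, every direction between libraries given here reverses. Where values come in pairs, the first is from the library labelled MLT and the second from the library labelled DEHP_MLT, unless the sentence says otherwise.

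Ovarian stroma is the mesenchyme between the follicles. It lays down fibrillar collagens, proteoglycans and basement membrane, surrounds the primordial follicles as they form around birth, and holds the progenitors from which theca cells, the androgen-making layer of growing follicles, later arise. Hedgehog, platelet-derived growth factor and Wnt signals pass between granulosa cells and stroma, and Tcf21, a basic helix-loop-helix transcription factor, marks gonadal mesenchymal progenitors.

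The library labelled MLT held 1426 members, 32.7% (31.3 to 34.1, Clopper-Pearson) of its 4367 barcodes with at least 5000 UMIs. The library labelled DEHP_MLT held 1660, or 34.4% (33.1 to 35.8) of 4819. The floor of 5000 UMIs removed barcodes from the library labelled MLT only. The lowest barcode in its table had 2031 UMIs, against 6923 in the other, and the lowest members had 5003 and 6923. Shares of the libraries thus rest on unlike depth floors. Outside the barcodes with 500 or more haemoglobin UMIs per 10000, the shares were 33.0% (31.6 to 34.4) and 39.4% (37.9 to 40.9), so the gap between libraries was wider. Members carried 15430294 and 20853783 UMIs in sum, with medians of 10502 and 10967.5 UMIs and 3590 and 3464.5 genes per barcode. Median mitochondrial shares were 3.11% and 2.98%, and ribosomal protein genes took 25.03% and 28.1%. The libraries shared 4 barcode sequences, none of them among members.

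RNA of other cells differed between the libraries within these members. Haemoglobin had a median of 4.16 UMIs per 10000 in the library labelled MLT against 57.1 in the other, where no member was below 32.2. Haemoglobin reached 500 in 3 and 58 members. Neutrophil markers reached 100 in 0 and 5 members. A gene whose ratio moves with these barcodes is given with and without them, and the part of haemoglobin in other results was not tested.

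Near the limits the choice is a cut through a continuum. The member with the lowest collagen and decorin sum stood at 40.1 in the library labelled MLT and the nearest barcode left out at 39.9; in the other library the values were 40.03 and 39.97. Members had medians of 76.7 and 76.5 on this sum, and 1077 and 1908 barcodes failed this condition alone. The limit on Mki67 and Top2a removed 390 and 407 barcodes that met every other condition, with 1.973 and 1.987 as the highest member values and 2.010 and 2.014 as the lowest outside. The limit on Ntrk3, Ndnf and Dpt removed 172 and 75, with 2.993 and 2.940 just inside and 3.010 and 3.026 just outside. The smooth muscle limit removed 64 and 24, with 4.943 and 4.725 inside and 5.004 and 5.002 outside. The MHC class II limit removed 338 barcodes of the library labelled MLT (9.65 inside, 10.3 outside) and 0 of the other, in which the highest member stood at 1.96. The Rgs5 limit removed 0 and 1, and the endothelial limit removed 0 and 0.

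The marker genes, none of which the rule used, go with the label. Their summed level averaged 7.38 and 7.29 UMIs per 10000 in members of the libraries labelled MLT and DEHP_MLT, against 2.53 and 1.27 in all other barcodes, a group that still holds the cycling and subtype stroma. Pdgfra, the receptor for platelet-derived growth factor A, had 205 CPM (198 to 213; CPM is the count after scaling the members' summed UMIs to a common total, with a Poisson interval) in the library labelled MLT against 126 (121 to 131) in the other. Tcf21 had 211 (204 to 219) and 385 (377 to 394). Ogn, which encodes the small leucine-rich proteoglycan osteoglycin, had 129 (123 to 135) and 92.7 (88.6 to 96.9). Col4a4, a basement membrane collagen chain, had 191 (184 to 198) and 121 (117 to 126). Of these 4 markers only Tcf21 was higher in the library labelled DEHP_MLT.

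At an equal depth of 5000 UMIs, Tcf21 was seen in 55.8% of members of the library labelled MLT (53.1 to 58.3) and 72.4% of the other (70.2 to 74.5). Pdgfra was seen in 55.3% and 42.7%, Col4a4 in 44.9% and 35.6%, and Ogn in 37.5% and 32.2%. In erythroid barcodes, whose median depths were 12338 and 9366 UMIs, Tcf21 had a UMI in 8.57% of 35 and 4.02% of 547 barcodes at the same thinned depth, and Pdgfra in 0% and 0.366%. The limit that a count of 0 allows in 35 barcodes is wide, since the exact interval reaches 10.0%. Member shares stood above these background shares for every marker. Only 1.96% and 2.59% of members had no UMI of any of the 4 markers at full depth.

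Markers of other ovarian cells were low in members, with exceptions. Germ cell markers summed above 5 per 10000 in 1.89% and 1.45% of members, surface epithelium markers in 0.351% and 0.783%, macrophage markers in 0.140% and 0.241%, and endothelial markers in 0.0701% and 0.241%. Granulosa cell markers passed 5 in 38.0% of members of the library labelled MLT and 23.9% of the other. Of that list, Foxl2, the transcription factor of granulosa cells, had 199 and 161 CPM in members against 218 and 114 in all other barcodes, whereas Kctd14 had 189 and 143 against 821 and 482. Amh, a hormone of growing follicles, was nearly absent at 0.907 and 0.719 CPM. Smooth muscle markers passed 5 in 32.4% and 44.6%, through Acta2 and Tagln, which the rule did not limit. Steroid-making theca genes were low to unlike degrees. Cyp17a1, the theca androgen enzyme, had 3 UMIs in each library, Cyp11a1, which starts steroid synthesis, had 5 and 9, and Lhcgr had 9 and 3. Star had 68 and 47 UMIs. The steroid dehydrogenase gene Hsd3b1 had 387 and 242 UMIs, or 25.1 and 11.6 CPM, against 124 and 48.1 CPM in all other barcodes.

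Counting UMIs of a 3' assay gives each captured transcript molecule 1 count whatever its length, so levels were not scaled by length. How well RNA of different genes is captured was not tested, so levels of different genes are compared only roughly. Of 2847 genes with at least 50 CPM in members of both libraries, 444 (15.6%) stood 1.5-fold or more above all other barcodes in both; since members were chosen on their counts, this is a description without a test. The genes farthest above the others in both libraries, in order, were Col4a4, Ogn, Srpx2, Islr, Clmp, Actr3b, Frem1, Col26a1, Kcnk2, Fmo1, Hsd11b2, Scube2, the rule gene Dcn, Smim41 and Dnm1. Islr, an immunoglobulin-superfamily protein of mesenchymal cells, had 364 and 388 CPM in members against 76.1 and 38.8 elsewhere, and was seen in 80.01% and 81.9% of members at 5000 UMIs. Clmp, an adhesion molecule, had 222 and 242 CPM against 46.7 and 27.5. Kcnk2, a potassium channel, had 212 and 208 against 47.1 and 30.9. Hsd11b2, which inactivates glucocorticoids, had 104 and 110.2 against 22.99 and 11.9. Scube2, a secreted protein that helps release Hedgehog ligands, had 72.8 CPM in both libraries against 16.6 and 10.1. Fmo1, a flavin monooxygenase of xenobiotic metabolism, had 90.4 (85.7 to 95.3) and 71.5 (67.9 to 75.2) against 19.9 and 6.86. Frem1, a basement membrane protein, had 103 and 80.9 against 22.2 and 10.9.

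By abundance, the nuclear RNA Malat1 led with 28593 CPM in the library labelled MLT against 17267 in the other. The translation genes Tpt1 (8451 and 9226) and Eef1a1 (6350.2 and 7864) followed. Sparc, a collagen-binding glycoprotein, had 2731 and 3658 CPM. The collagen genes Col1a2 (2449 and 2473) and Col3a1 (2294 and 2391) are rule genes, so their rank is not a result. Jun, an AP-1 transcription factor, had 2123 and 2326 CPM, and the maternally expressed imprinted RNA Meg3 had 1591 and 2159.8. Actb, Hsp90ab1, Ubb, Ptma, Rack1, H3f3b and Ftl1 complete the 15 most abundant genes outside mitochondrial, ribosomal protein and haemoglobin genes.

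Members were set beside barcodes that met all conditions but 1, within each library. In cycling stroma Ogn was lower, at 30.4 and 25.3 CPM against 129 and 92.7 in members, and Wnt4, a signal of the female gonad, was at 273 and 397 against 434 and 608. Pdgfra stood at 222 and 141 CPM in cycling stroma against 205 and 126 in members. In the stroma with Ntrk3, Ndnf or Dpt, Col4a4 was lower (67.9 and 34.7 CPM), while the proteoglycan gene Lum was higher (564 and 630.2 against 236 and 179.7). Dlk1, a non-canonical Notch ligand of mesenchymal progenitors, was also higher there (1054 and 1657 against 462 and 821), as was the Wnt antagonist Sfrp1 (1351 and 1229 against 548 and 587). In barcodes over the smooth muscle limit, the microfibril gene Mfap5 reached 1430.1 and 1222 CPM against 113 and 77.9 in members. The MHC class II-high barcodes, present in the library labelled MLT alone, had 53.3 CPM of Col4a4 and 1247 of the MHC class I gene H2-K1, against 191 and 65.8 in members of that library. All these barcodes share a library with the members they are compared with, and no test was made.

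**Figure D1:**
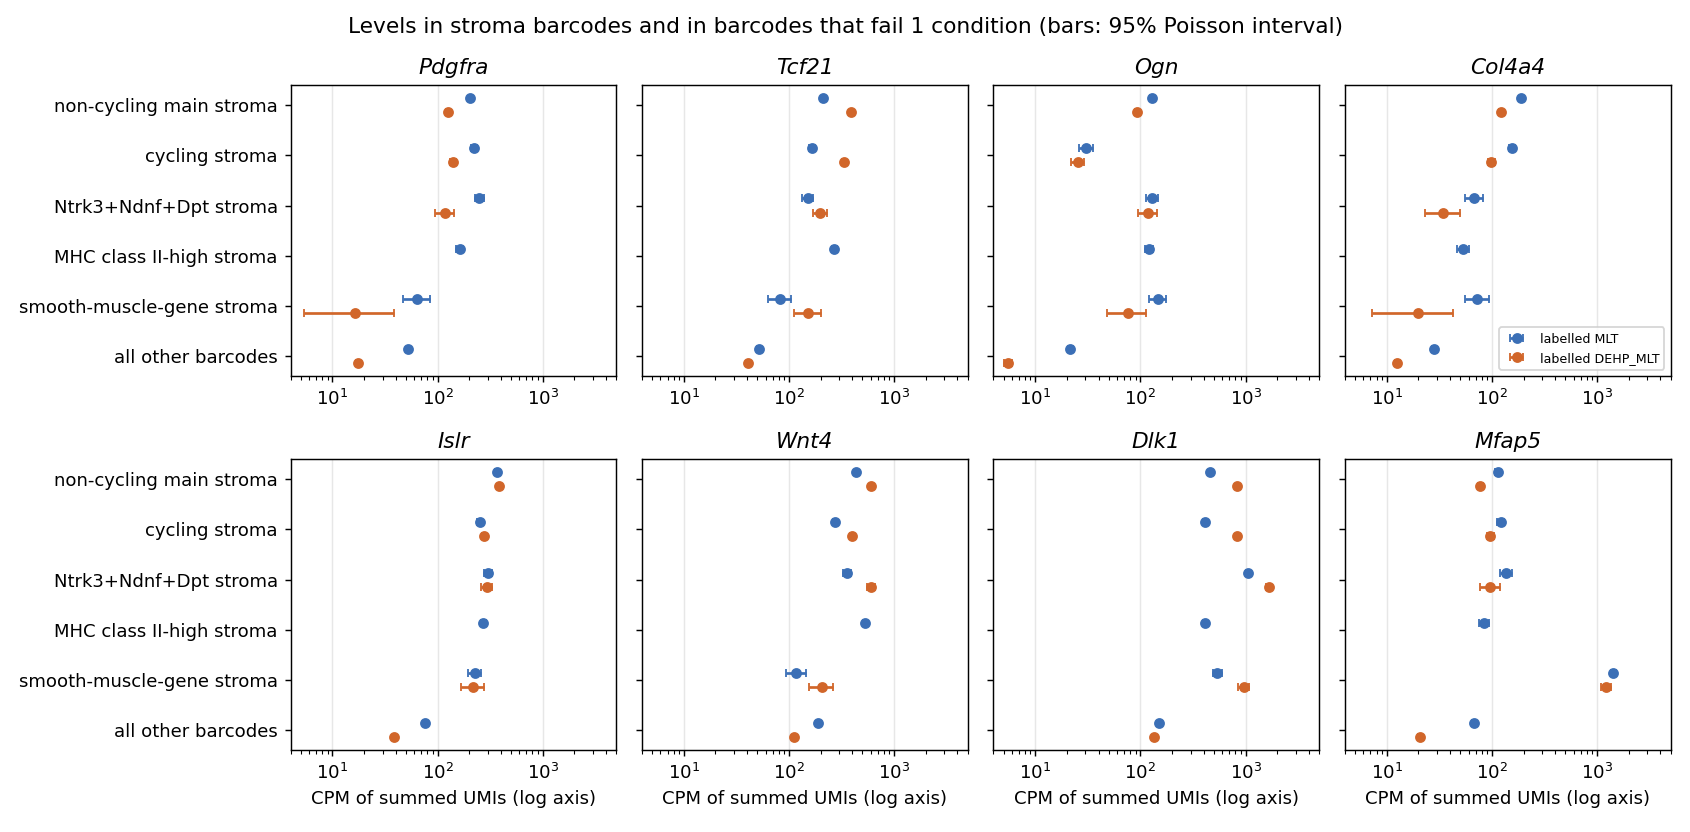
CPM of 8 genes on a log axis in non-cycling main stroma, in barcodes failing 1 condition (cycling, Ntrk3 with Ndnf and Dpt, MHC class II, smooth muscle) and in all other barcodes; blue is the library labelled MLT, orange the library labelled DEHP_MLT, bars are 95% Poisson intervals. Ogn is low in cycling stroma (30.4 and 25.3), Col4a4 is low in the Ntrk3 group (67.9 and 34.7), and Mfap5 is high in the smooth muscle group (1430.1 and 1222).

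The library labelled DEHP_MLT was then compared with the library labelled MLT within members. A gene was counted as past the fold when it had 50 CPM or more in either library, a ratio of 1.5 or more after adding 1 CPM to both levels, and Poisson intervals that did not overlap. Of 3414 such measured genes outside the rule, 59 (1.73%) were higher and 232 (6.80%) were lower in the library labelled DEHP_MLT. The higher genes thus made up 20.3% of those past the fold; this share was 32.7% (71 higher, 146 lower) when ratios were centred on the median gene, a shift of -0.06 on the log2 scale, and 34.1% (93 higher, 180 lower) when totals left out mitochondrial, ribosomal protein and haemoglobin genes.

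Transcript length moved with these calls. The median longest transcript was 6.004 kb for the genes that were lower, 1.76 kb for those higher and 3.09 kb for those past neither limit. The lower genes were also lower in all other barcodes of the same libraries. Their median log2 ratio there was -0.83, against -0.27 over all measured genes. Of the 232, 225 were below 0 there, against 2262 of all 3414. The most abundant gene, Malat1, was among the lower genes, with a log2 ratio of -0.73 in members and -1.63 in all other barcodes. Those barcodes still hold other stroma, and their make-up differed between libraries. With members included, 2591 of 4367 and 2189 of 4819 barcodes reached the collagen and decorin limit. The part of this make-up in any ratio over all other barcodes, here or below, was not tested. Of the 59 higher genes, 35 were above 0 in the other barcodes, against 1152 of all 3414, with a median of 0.28. Without members whose germ, granulosa and surface markers summed above 5, which left 462 and 821, 67 genes were higher and 222 lower. The part of length or of a shift common to the whole library in each named gene was not tested.

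**Figure D2:**
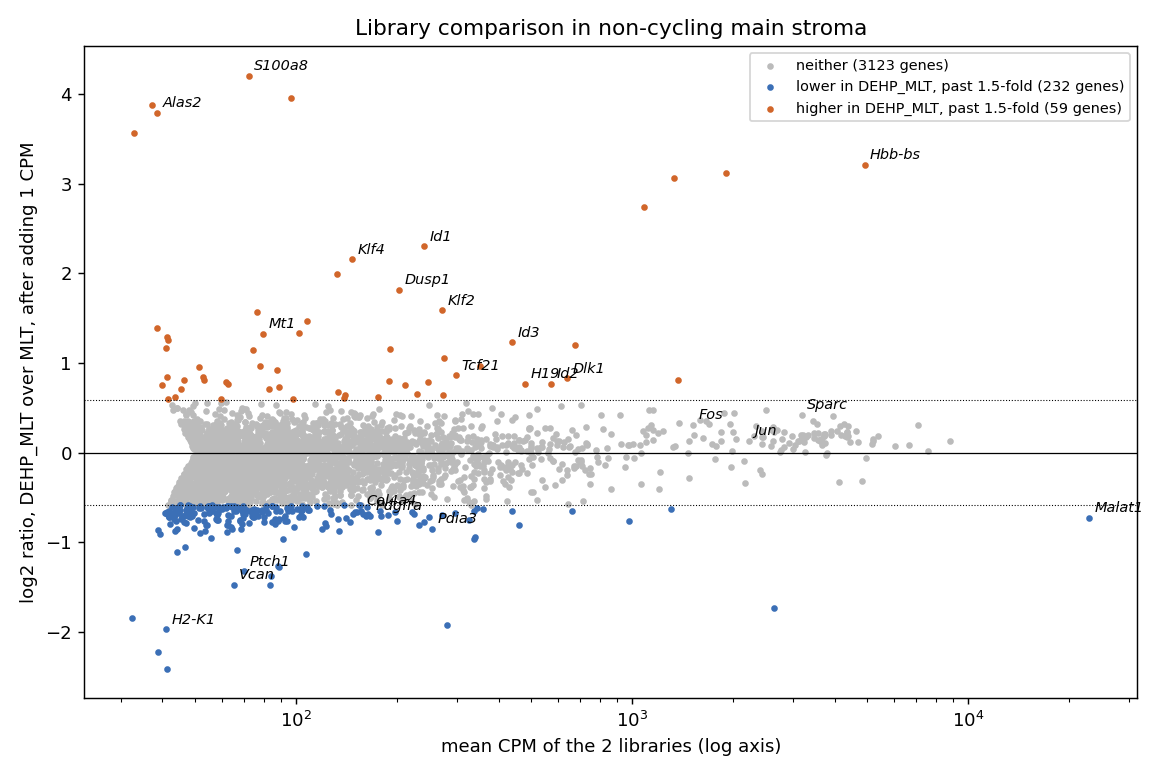
Log2 ratio of the library labelled DEHP_MLT over that labelled MLT against mean CPM (log axis) for the 3414 measured genes in members; orange and blue points are the 59 higher and 232 lower genes, and dotted lines mark 1.5-fold. Id1, Klf4 and Dusp1 lie above the body of genes, and the blood cell genes S100a8 and Alas2 lie above those.

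The 5 largest ratios among named genes belong to genes of blood cells. S100a8 and S100a9, calcium-binding proteins of neutrophils, had 6.55 and 10.8 CPM in the library labelled MLT against 138 and 182 in the other. Their log2 ratios of 4.204 and 3.95 became 2.18 and 1.93 without the 5 members with neutrophil markers of 100 or more, and those of the neutrophil genes Cstdc5 (3.87) and Stfa1 (3.57) became 1.82 and 1.53. Alas2, the red-cell enzyme of haem synthesis, had a ratio of 3.79 (3.48 without the haemoglobin-rich members), and its 11.6% share of members in the library labelled DEHP_MLT was near the 12.8% of germ cell barcodes. S100a8 was seen in 15.96% of members of the library labelled DEHP_MLT at 5000 UMIs, and in 17.2% of its germ cell barcodes, which should lack it. For both genes the shares in members and germ cell barcodes were alike, and the part of RNA shared by all barcodes was not tested.

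Counts in the gene lists below are to be set beside the shares over all 3414 measured genes outside the rule, 1.73% higher and 6.8% lower. A list with no gene or a single gene past the fold is not read as a result about that list. Matrix genes encode the main product of stroma. Of the 6 fibrillar collagens with 50 CPM, Col1a1, Col1a2 and Col3a1 are rule genes, so no count or median of that list is read. Col5a1 and Col5a2, which join the type I fibres, had 237 and 302 CPM in the library labelled MLT against 204 and 250.2 in the other, and Col27a1 had 70.9 and 88.1; none of these 3 passed the fold. Of 6 other collagens, Col12a1, a fibril-associated collagen, was lower (174 and 94.5 CPM, log2 ratio -0.88), while the microfibril chains Col6a1 and Col6a2 had 721 and 716 CPM in the library labelled MLT against 674 and 645 in the other. None of 14 genes for collagen processing passed: the collagen chaperone Serpinh1 had 580.4 and 618 CPM, the crosslinking enzyme Loxl1 had 298 and 367, and the list median was 0.12, against -0.13 over all 9069 genes with at least 10 CPM. None of 8 remodelling genes passed either, and the gelatinase Mmp2 had 409.8 and 443 CPM and its inhibitor Timp2 268 and 289.

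Of 9 basement membrane genes 1, the marker Col4a4 (-0.65), was lower, and the list median was -0.42, against -0.13 over all genes. That call ended when totals left out mitochondrial, ribosomal protein and haemoglobin genes (-0.56) and without the MHC class II limit (-0.43). Col4a1 and Col4a2, the chains of ordinary basement membrane, had 337 and 246 CPM in the library labelled MLT against 269 and 177 in the other. Nid1, the linker protein nidogen, had 378 and 265 (-0.51). The laminin chain Lama2 had 124 and 87.1, and Lamb1 had 232 and 179. Of 8 proteoglycan genes, among which Dcn is a rule gene, Vcan, a large hyaluronan-binding proteoglycan, was lower (96.4, interval 91.5 to 101, against 34.1, interval 31.6 to 36.7; -1.47), and the small proteoglycan Bgn had 789 and 1055 CPM (0.42). Of 16 elastic fibre and matrix glycoprotein genes Eln, which encodes elastin, was higher (214 and 334, 0.64, but 0.57 at 5000 UMIs per barcode, short of the fold). Its partners in microfibrils Mfap2 and Mfap4 had 1018 and 1007 CPM in the library labelled MLT against 1259.7 and 1218 in the other, short of the fold.

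Among transcription factors of gonadal stroma, 17 had 50 CPM and only Tcf21 passed the fold (0.86). It was also higher in cycling stroma (165 and 330.4 CPM, 0.999). In the Ntrk3, Ndnf and Dpt stroma it stood at 150.1 and 197 (0.39), and in all other barcodes at 51.9 and 40.9 (-0.34). Nr2f2, an orphan nuclear receptor of mesenchyme, had 399 and 324 CPM, Wt1 had 199.8 and 214, and Gata4 had 104 and 99.4. The list median was -0.09.

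Hedgehog signals reach stroma from granulosa cells, and Ptch1 is both their receptor and a target whose level rises with the signal. Ptch1 had 100.4 CPM (95.4 to 106) in the library labelled MLT against 39.5 (36.9 to 42.3) in the other, a log2 ratio of -1.32. Gli1, the transcription factor that responds most directly, was below 50 CPM at 35.6 (32.7 to 38.8) and 20.6 (18.7 to 22.7), or -0.76. Gas1, a co-receptor, had 422 and 565 (0.42), and the signal transducer Smo had 142 and 137 (-0.05). Of 4 Hedgehog genes with 50 CPM, Ptch1 alone passed, and the list median was -0.19. Ptch1 was seen in 31.3% and 14.6% of members at 5000 UMIs, against 2.86% and 2.01% of erythroid barcodes. Its ratio was -1.10 in cycling stroma, -1.36 in the Ntrk3, Ndnf and Dpt stroma and -1.14 in all other barcodes. The theca gene Hsd3b1, a steroid dehydrogenase, had 25.1 and 11.6 CPM, and no theca gene reached 50.

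Of 9 growth factor receptors, Pdgfra (-0.70) and the BMP receptor Bmpr2 (87.0 and 53.6 CPM, -0.69) were lower, and the list median was -0.30. The insulin-like growth factor receptor Igf1r had 131 and 106 CPM. Of 7 secreted signals, Kitl, the ligand by which somatic cells act on oocytes through Kit, was lower (85.7 and 50.6, -0.75). The growth factors Mdk and Ptn were abundant in both, with 1288 and 1003 CPM in the library labelled MLT against 1350.4 and 898 in the other. None of 7 Wnt genes passed: Wnt4 had 434 and 608 (0.49) and Sfrp1 548 and 587. None of 9 genes of the insulin-like growth factor system passed: the binding protein Igfbp4 had 989 and 1165 CPM, Igfbp5 had 1032 and 987, and Igf1 had 235 and 182.

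Of 14 imprinted growth genes, 2 were higher, beside 1.73% of all 3414 measured genes. Dlk1 had 462 (452 to 473) and 821 (809 to 833) CPM (0.83), and H19, a long noncoding RNA of the Igf2 domain, had 355 and 604 (0.77). Igf2 itself had 104 and 102 (-0.04), and Meg3 had 1591 and 2159.8 (0.44). Dlk1 was seen in 70.4% and 85.8% of members at 5000 UMIs. In erythroid barcodes the shares were 5.71% and 8.96%. In all other barcodes the ratios of Dlk1 and H19 were -0.13 and -0.15.

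Of 10 genes of cell cycle exit and D cyclins, Cdkn1b, the inhibitor p27, was lower (64.0 and 35.2 CPM, -0.84). The paternally silenced inhibitor gene Cdkn1c had 333 and 348, and Ccnd2 had 643 and 565. Of 9 replication and mitosis genes Ube2c was higher (45.0 and 78.5, 0.79), and its ratio in all other barcodes was 1.40. The replication helicase gene Mcm6 had 97.3 and 78.1 CPM, so members below the Mki67 and Top2a limit still held RNA of replication genes.

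Id1, an inhibitor of basic helix-loop-helix factors and a target of BMP signals, had 80.2 CPM (75.8 to 84.8) in the library labelled MLT against 399.8 (391 to 409) in the other, a log2 ratio of 2.30. Id3 had 262 and 616 (1.23) and Id2 424 and 723 (0.77), which makes 3 of 9 genes of the BMP and TGF-beta list; the other 6 passed in neither direction, among them Smad7 (92.5 and 90.7) and Bambi (52.4 and 60.9), a decoy receptor. Id1 had no UMI in 61.2% of members of the library labelled MLT, against 27.5% in the other. At 5000 UMIs it was seen in 25.2% and 57.8% of members, 5.71% and 10.4% of erythroid barcodes, and 33.7% and 36.1% of germ cell barcodes, so its share in members of the library labelled MLT lay below that in germ cells. Its ratio was 2.51 in cycling stroma, 2.02 in the Ntrk3, Ndnf and Dpt stroma and 0.73 in all other barcodes.

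Of 23 immediate-early and heat shock genes, 7 were higher and none lower, with a list median of 0.32. Klf4, a zinc finger factor, had 53.0 (49.4 to 56.8) and 240.1 (233 to 247) CPM, a ratio of 2.16. Dusp1, a phosphatase that switches off MAP kinases, had 89.0 and 316 (1.81). Klf2 had 135 and 409 (1.59), Klf6 56.6 and 159 (1.47), Gadd45b 46.1 and 103 (1.14), Ier3 52.8 and 104 (0.96) and the heat shock co-chaperone Dnajb1 62.9 and 103 (0.71). Icam1, an adhesion molecule outside this list, had 38.1 and 115 (1.56). The most abundant early genes did not pass: Jun had 2123 and 2326 CPM, Fos 1357 and 1685, and Egr1 1373 and 1036 (-0.41). In all other barcodes Klf4, Dusp1 and Klf2 had ratios of 0.23, 0.38 and -0.10, and in cycling stroma 1.96, 1.97 and 1.65. At 5000 UMIs, Dusp1 was seen in 34.4% of the erythroid barcodes of the library labelled DEHP_MLT against 51.0% of its members, and in 8.57% against 28.8% in the library labelled MLT; what part RNA shared by all barcodes has in this was not tested.

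The promoters of 4 early genes are shown, since Fos and Btg2 vary together among members and Klf4 and Dusp1 have the largest ratios of this list. They come from RefSeq on build GRCm38.p6, run 5′ to 3′ on the gene's strand, and span 250 bases before to 50 bases after the start. Fos lies at chr12:85473640-85473939 on the plus strand, Btg2 at chr1:134079106-134079405, Dusp1 at chr17:26508423-26508722 and Klf4 at chr4:55532426-55532725, the last 3 on the minus strand. Capitals mark TGACG or its reverse complement CGTCA, the core of the cyclic AMP response element (CRE).
Fos: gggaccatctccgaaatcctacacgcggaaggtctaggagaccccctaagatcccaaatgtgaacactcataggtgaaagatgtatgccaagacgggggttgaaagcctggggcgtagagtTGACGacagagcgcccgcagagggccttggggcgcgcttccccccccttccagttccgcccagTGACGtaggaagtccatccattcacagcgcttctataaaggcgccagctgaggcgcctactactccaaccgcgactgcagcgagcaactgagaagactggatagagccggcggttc
Btg2: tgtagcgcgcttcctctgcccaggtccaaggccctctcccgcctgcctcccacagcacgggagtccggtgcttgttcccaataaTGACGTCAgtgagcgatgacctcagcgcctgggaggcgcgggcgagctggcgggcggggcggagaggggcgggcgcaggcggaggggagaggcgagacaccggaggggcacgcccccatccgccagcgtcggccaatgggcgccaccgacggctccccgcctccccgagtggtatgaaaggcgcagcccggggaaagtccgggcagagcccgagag
Dusp1: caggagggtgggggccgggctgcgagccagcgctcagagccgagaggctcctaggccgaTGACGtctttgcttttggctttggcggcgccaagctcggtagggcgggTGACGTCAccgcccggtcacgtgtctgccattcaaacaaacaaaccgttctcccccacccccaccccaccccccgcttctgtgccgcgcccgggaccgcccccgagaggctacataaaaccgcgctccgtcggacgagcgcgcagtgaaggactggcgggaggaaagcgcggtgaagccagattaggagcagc
Klf4: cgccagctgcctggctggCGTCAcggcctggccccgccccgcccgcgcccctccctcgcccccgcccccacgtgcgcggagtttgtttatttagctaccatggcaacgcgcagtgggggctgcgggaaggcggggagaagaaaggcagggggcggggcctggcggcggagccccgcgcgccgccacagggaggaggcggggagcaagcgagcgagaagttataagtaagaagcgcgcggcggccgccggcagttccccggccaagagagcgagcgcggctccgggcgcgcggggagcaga

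In Fos the core starts 129 and 66 bases before the start, in Btg2 at 166 and 163, in Dusp1 at 191, 143 and 140, and in Klf4 at 232. The pairs 3 bases apart in Btg2 and Dusp1 overlap and form the full element TGACGTCA. The core, on either strand, occurred in 20.8% of 32851 RefSeq promoter windows and in 12 of the 26 windows found for the 33 listed early and heat shock genes. The full element occurred in 1.79% of all windows and in 2 of these 26. The serum response factor's CArG box occurred in 1.63% and in the window of Zfp36, and the AP-1 letters TGANTCA in 7.81% and in none of the 26. These are matches of letters and do not show that a factor binds.

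Receptor genes tied to the given compounds had few UMIs. The melatonin receptor gene Mtnr1b had 1 and 3 UMIs over all members. Phthalate metabolites can activate peroxisome proliferator-activated receptors, and here Ppara had 4.80 and 2.30 CPM and Pparg 2.07 and 0.959. Of 5 PPAR and lipid genes with 50 CPM, Scd2, a fatty acid desaturase, was lower (115 and 70.3, -0.71), while the lipid droplet gene Plin2 had 133 and 147. None of 4 hormone receptors passed: the thyroid receptor Thra had 354 and 339 CPM, the glucocorticoid receptor Nr3c1 122 and 88.8, and the oestrogen receptor Esr1 54.4 and 39.4; the list median was -0.38. No circadian clock gene reached 50 CPM, and Clock had 47.5 and 37.1. None of 3 retinoic acid genes passed, with a list median of -0.13.

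Of 14 genes of the endoplasmic reticulum, 3 disulfide isomerases were lower: Pdia3 (326 and 181 CPM, -0.85), Pdia6 (414 and 264, -0.65) and Pdia4 (79.8 and 50.6, -0.65). The calcium-binding chaperones Calr (771 and 518) and Hsp90b1 (616 and 426) and the chaperone Hspa5 (489 and 374) were below the fold, and the list median was -0.30. Atf4, the transcription factor of the integrated stress response, was higher (138 and 239.6, 0.79). Pdia3 was lower in all other barcodes as well (-1.31), and with the reduced totals the Pdia6 log2 ratio in stroma was -0.562 and the Pdia4 log2 ratio in stroma -0.565, short of the fold. Of 11 glycolysis genes Ldha, which makes lactate, was higher (157 and 266, 0.76), as were Eno1 (102 and 164, 0.68) and Tpi1 (178 and 281, 0.65); none was lower, and the list median was 0.41. In all other barcodes Ldha had a ratio of -0.17. Of 15 contractile and cytoskeleton genes, S100a6 was higher (138 and 213, 0.62, but 0.43 without members with germ, granulosa or surface markers), and Acta2 had 348 and 468 CPM and Tagln 296 and 398 (0.43 each).

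Of 19 antioxidant genes, 3 were higher and 1 lower. Mt1, a metal-binding metallothionein, had 45.0 and 114 CPM (1.33), and was higher in all other barcodes by 1.06 on the same scale. Gpx1, a glutathione peroxidase abundant in red cells, had 118 and 263 (1.15, and 0.72 without members of 500 or more haemoglobin UMIs). Gpx3, a secreted peroxidase, had 33.6 and 59.4 (0.80), and the thioredoxin reductase Txnrd1 had 55.1 and 35.1 (-0.64, and -0.56 with the reduced totals, short of the fold). Peroxiredoxins and superoxide dismutases did not pass, with Prdx1 at 484 and 491 CPM and Sod1 at 233 and 223.

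Results for MHC class I and interferon genes depended on the class II limit. With it, H2-K1 was lower in the library labelled DEHP_MLT (65.8 and 16.1 CPM, -1.97) and Ifitm3, an antiviral membrane protein, was higher (239 and 467, 0.96), which are 2 of 5 genes with 50 CPM. H2-K1 was seen in 27.8% and 7.77% of members at 5000 UMIs, below its shares in erythroid barcodes (37.1% and 21.2%) and germ cell barcodes (60.2% and 48.6%). The part of RNA shared by all barcodes in its level was not tested. Without the limit, 338 barcodes joined the library labelled MLT, H2-K1 moved to -4.14 and Ifitm3 turned to -0.53. The barcodes that joined had 2448 CPM of Ifitm3 and 1665 of the interferon-induced GTPase gene Iigp1, against 239 and 44.9 in members of that library. Among genes below 50 CPM, H2-D1 had 45.3 and 7.77 and Isg15, an interferon-induced ubiquitin-like protein, 7.45 and 30.5.

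The remaining lowest ratios were in Tsix (124 and 43.7 CPM, -1.48), the antisense RNA of the X-inactivation centre, in Lars2 (122 and 46.1, -1.38), a mitochondrial leucine tRNA synthetase, and in Pkdcc (125 and 51.6, -1.26), a secreted kinase of the skeletal matrix. Cped1 (-1.13), the peptidase gene Mme (-1.11), Aff3 (-1.09), Rybp (-1.05) and Nfe2l1 (-0.97) followed. Reads of Tsix and its partner Xist overlap and cannot be told apart where strand was not used, which the sources used here do not say. Among the highest 12, Ube2l6, an enzyme that attaches Isg15, had 20.9 and 56.4 (1.39, and 0.91 without the haemoglobin-rich members). Without the MHC class II limit its ratio was 0.18, short of the fold.

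**Figure D3:**
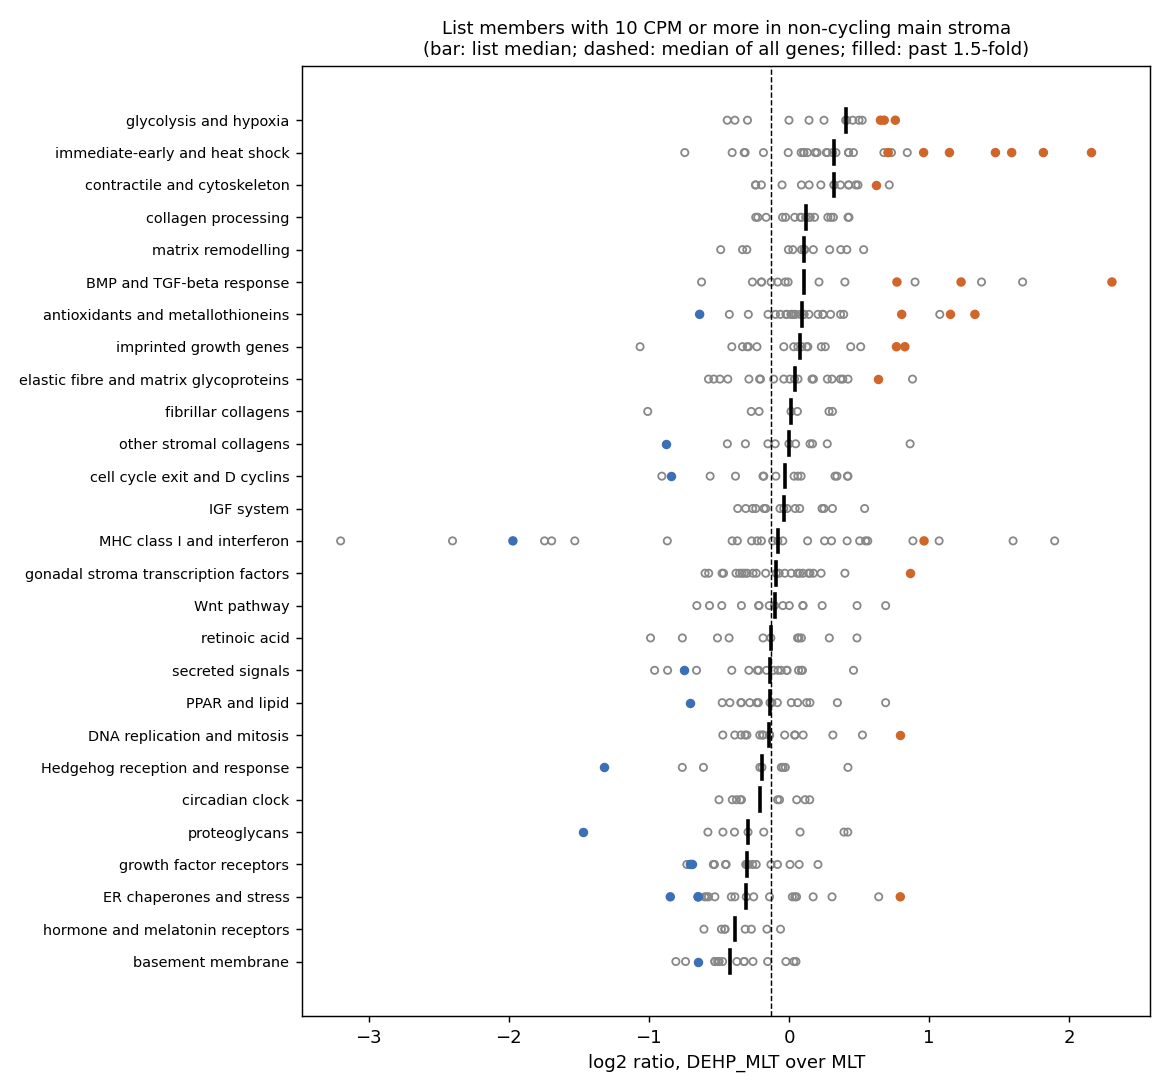
Log2 ratios (library labelled DEHP_MLT over that labelled MLT) of list members with at least 10 CPM, 1 point per gene; filled points are past 1.5-fold, bars are list medians and the dashed line is the median of all genes (-0.13); the fibrillar collagen and proteoglycan lists include rule genes. Glycolysis has the highest median (0.41) and basement membrane the lowest (-0.42); Id1 at 2.30 and Klf4 at 2.16 lie far right.

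Members also differed among themselves. Counts were thinned to 5000 UMIs per barcode and genes ranked by variance over mean, which is 1 for pure counting noise. Of the 15 leading genes in each library 7 were shared, 46.7% of each list: Malat1, Tagln, Fos, Acta2, Meg3, Jun and Mgp. In the library labelled MLT, Malat1 (24.8), Tagln (7.36), Fos (7.11), Acta2 (6.95), Meg3 (6.34) and Mfap5 (5.74) led. Iigp1, Btg2, Igfbp5, Fosb, Junb, Dcn and Sfrp1 completed that list. In the library labelled DEHP_MLT the neutrophil genes S100a9 (156), S100a8 (118), Cstdc5 (71.8) and Stfa1 (60.4) led, followed by Crip1 (16.3), Malat1 (16.2) and Ifitm3 (7.605), with Alas2 and Gpx1 also on the list. Neutrophil markers summed to 100 or more per 10000 UMIs in 5 of the 1660 members there, with a highest sum of 1181 and a 95th percentile of 2.60. Without those 5 members, an alternative added after seeing the data, the 4 neutrophil genes stood at 0.948, 1.11, 1.03 and 0.970, the level of counting noise, while Crip1 stood at 16.4 and Malat1 at 16.2. S100a9 stood at 0.935 in the library labelled MLT.

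In all, 3 sets of genes varied together across barcodes in both libraries. Correlations are Pearson's r of log-transformed thinned counts over 1426 and 1660 barcodes of 1 library each, which share that library and its preparation, and are descriptions. The first set was the early genes: Fos with Fosb had r of 0.55 in the library labelled MLT against 0.73 in the other, Fos with Jun 0.46 and 0.74, and Fos with Egr1 0.49 and 0.65. Actin-associated genes formed the next: Acta2 with Tagln had 0.58 and 0.54, Tagln with Mfap5 0.42 and 0.40, and Acta2 with Myl6 0.40 and 0.41. Imprinted genes formed the third: Meg3 with Dlk1 had 0.43 and 0.43, Meg3 with its neighbour Rian 0.38 and 0.33, and Meg3 with H19, which lies in a different imprinted domain, 0.33 and 0.30. Sfrp1 went with Dlk1 (0.36 and 0.38) and Lum (0.30 and 0.28). Malat1 went against Lgals1 (-0.40 and -0.32) and with the nuclear RNA Xist (0.36 and 0.35). Col4a4 had r of 0.26 and 0.21 with Igfbp4 and 0.20 and 0.26 with Itih5.

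**Figure D4:**
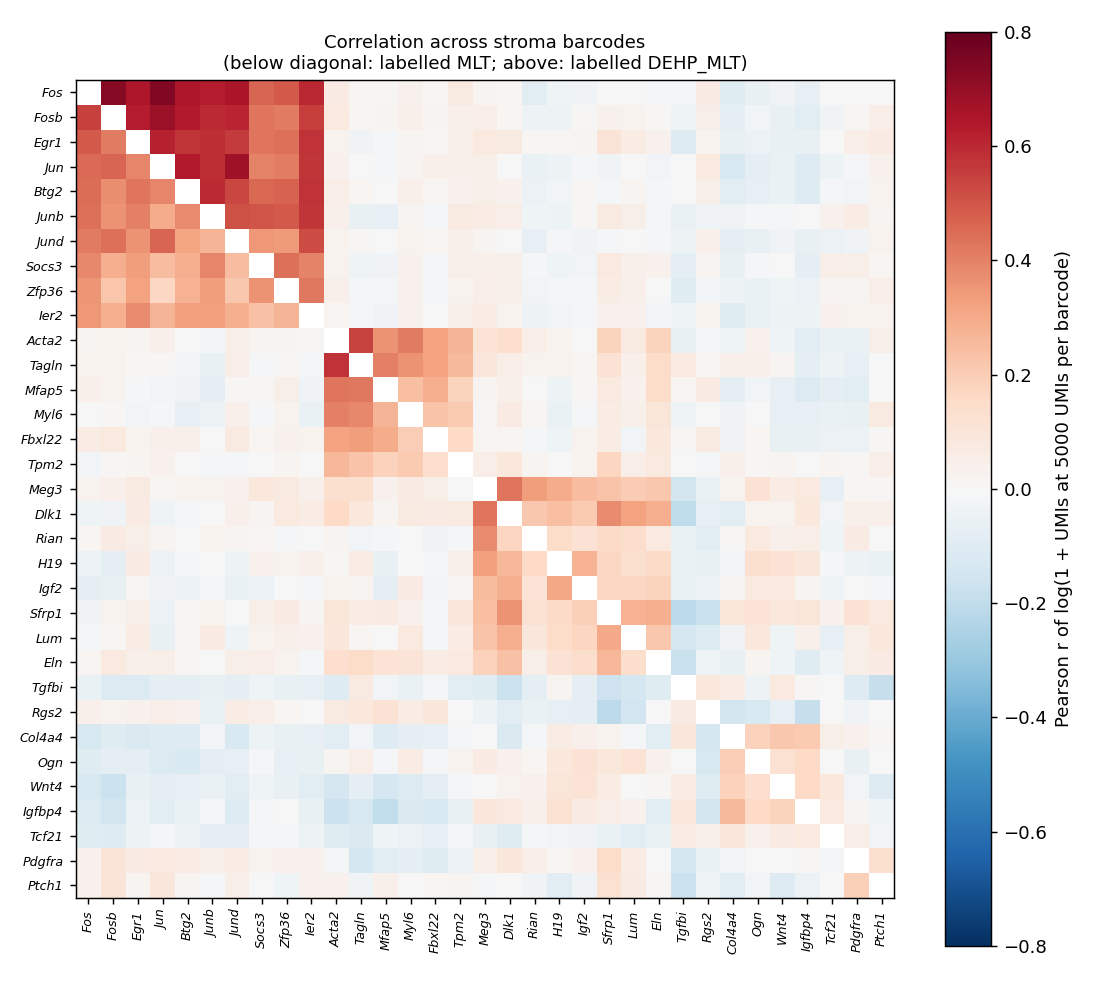
Pearson's r between genes across members at 5000 UMIs per barcode, below the diagonal in the library labelled MLT (1426 barcodes) and above it in the library labelled DEHP_MLT (1660 barcodes). Blocks of early genes, actin-associated genes and imprinted genes appear in both, and the early gene block is darker in the library labelled DEHP_MLT (Fos with Jun 0.74 against 0.46).

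Each set was then summed per barcode. The sum of Acta2 and Tagln had a median of 2.31 UMIs per 10000 in the library labelled MLT against 4.02 in the other, with 95th percentiles of 26.3 and 32.3, and 16.8% and 25.3% of members had 10 or more. Without those members, an alternative chosen after seeing the data, the comparison gave 57 higher and 248 lower genes. The early gene sum (Fos, Fosb, Jun, Junb and Btg2) was spread more widely in the library labelled DEHP_MLT: its median was 47.5 and 55.1, its 5th percentile 9.77 and 2.55 and its 95th percentile 129 and 148. In that library 14 members had none of these UMIs and 335 had 100 or more, against 0 and 166 in the library labelled MLT. The sum of Dlk1, Meg3 and Rian had medians of 17.97 and 27.3, and H19 with Igf2 had 2.90 and 5.12. Id1, Id2 and Id3 had medians of 5.93 and 14.4. Their 5th percentiles were 0.847 and 2.43 and their 95th percentiles 20.4 and 40.1, so the 3 percentiles lay in the same order.

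**Figure D5:**
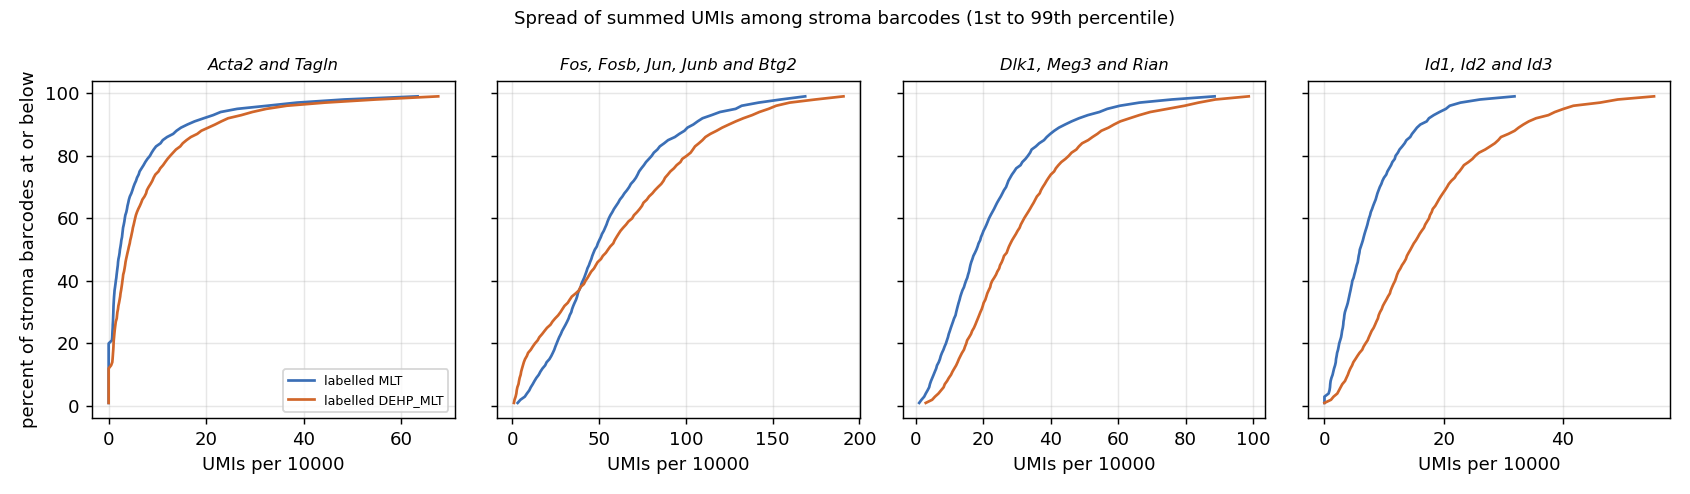
Percent of members at or below each summed level (UMIs per 10000, 1st to 99th percentile) for 4 gene sets, blue for the library labelled MLT and orange for that labelled DEHP_MLT. The Id curves are apart over most of the range (medians 5.93 and 14.4), while the early gene curves cross, with medians of 47.5 and 55.1.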

How the data were processed

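The authors deposited 1 table of raw counts per library (UMI counts per gene and barcode from the 10x Genomics 3′ assay, whole numbers with no normalization). Per the submitters' processing notes, Cell Ranger (no version given) and Seurat 4.2.0 were used with mm9. The 21018 gene symbols in both tables were used, 98.2% of which occur in GENCODE vM21, the source of transcript lengths; promoter sequences come from RefSeq on another build than mm9, so no coordinate of the counts is given. From these counts, members were chosen by the rule, their UMIs summed per library and expressed as CPM with exact Poisson intervals; shares have Clopper-Pearson intervals. Ratios used a pseudocount of 1 CPM, and list medians genes with 10 CPM. Thinning to 5000 UMIs used seed 1. No doublet caller was applied; the upper limits of the rule remove some mixed barcodes, and members with haemoglobin or neutrophil markers were left out as alternatives. The summing and calling steps were tested on simulated data. Genes named are the 12 highest and 12 lowest ratios past the fold, the 15 most abundant, the 15 farthest above other barcodes, the 15 most variable per library, and the leading or called members of 28 lists, leaving out mitochondrial, ribosomal protein, haemoglobin and unnamed genes. A few named-gene results are not reported here. Some further list members were named after their values were seen. Members and lists were chosen with earlier results of these data known. Germ cell barcodes for background shares had marker sums of 30 or more, and erythroid ones haemoglobin of 2000 or more, both with a collagen sum below 10. Scripts ran in Python 3.11.15 with pandas 2.3.3, numpy 2.4.6 and scipy 1.17.1; figures were drawn with matplotlib 3.10.9.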

Additional observations from a re-analysis of the deposited data

How the results depend on the processing

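The 2 libraries are single samples of their groups, so no library could be left out, and no spread between libraries is known. No paired analysis was possible because each group has 1 library and no test was made. Counts of genes past the fold moved by over 1.5 times under these settings: 139 lower with a pseudocount of 10 CPM, 146 lower when centred on the median gene, 93 higher with totals free of mitochondrial, ribosomal protein and haemoglobin genes, 104 higher and 496 lower at a 20 CPM minimum, and 25 higher and 31 lower at 200 CPM. Member shares in the libraries labelled MLT and DEHP_MLT were 34.3% and 36.6% with a collagen limit of 20, and 14.1% and 15.2% with 80. With a cycling limit of 1 they were 28.7% and 31.5%. With barcodes of 500 or more haemoglobin UMIs per 10000 left out of members and total alike, they were 33.0% and 39.4%. List medians near 0 changed sign. The circadian clock list median log2 ratio in stroma was 0.00112 and the retinoic acid list median log2 ratio in stroma 0.0475 with the reduced totals, the DNA replication and mitosis list median log2 ratio in stroma was 0.0335 with the collagen limit of 80, and the retinoic acid median was 0.0268 without members carrying germ, granulosa or surface markers above 5. Ifitm3 turned to -0.53 with no MHC class II limit. Of 54 named genes checked under 15 settings, Ifitm3 was the only reversal. The text names more genes than these 54, and the sign of the rest was not covered by that check. Settings on haemoglobin, neutrophil markers, Acta2 with Tagln, and MHC class II were chosen after seeing the data. The cause of these shifts was not tested. Depth limits genes under 50 CPM.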
